A study of Mus musculus with 12 samples.

Results

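The late state of macrophages after lipopolysaccharide (LPS), an outer membrane component of Gram-negative bacteria, was compared with their early state. Early cells, here LPS once, spent 18 h without LPS, had their medium exchanged and were given 100 ng/ml LPS after a rest of 2 h. Late cells, here LPS pretreated, received 100 ng/ml LPS for 18 h, had their medium exchanged and rested for 2 h without receiving LPS again. The comparison used 6 arrays of the 12 in the series, 3 per state, chosen by these labels and matched by the replicate letters A, B and C. Untreated cells, 3 arrays with the same schedule and no LPS, gave the baseline, and the 3 arrays of cells given LPS both times entered only the estimate of the spread. All cells were C57Bl/6 mouse bone marrow cells differentiated in M-CSF, the macrophage growth factor. The labels call the replicates biological and do not say whether cells of the same letter came from one animal. How long the last LPS stimulus lasted before harvest is not stated in the labels. The states differ in the time since LPS was added, in the length of exposure and in whether LPS was given after the medium exchange. These cannot be told apart. The states were also separate cultures. Words such as fell, rose, stayed and recovered therefore compare cultures and do not follow the same cells over time.

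LPS is sensed by the receptor Tlr4 with its co-receptor Cd14. One branch of signalling, through Myd88, releases NF-kappaB and AP-1 factors and switches on cytokine and chemokine genes within minutes to hours, while the other, through Trif and Irf3, induces type I interferon, which then acts back on the cells to induce antiviral genes. Early response genes also encode inhibitors that shut the response down, such as the NF-kappaB inhibitors of the IkappaB family, the dual-specificity phosphatases and the RNA-degrading protein Zfp36. Genes induced later often need newly made protein or interferon, and several of them stay on after the first wave has ended.

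The cells carried the macrophage markers in both states. All 12 measured markers, among them the M-CSF receptor Csf1r, the F4/80 antigen Adgre1 and lysozyme Lyz2, had a mean intensity of at least 100 units in each group. Their summed intensity was 73720 to 78510 in the early state, 83770 to 90720 in the late state and 80240 to 83080 in untreated cells. In a bulk sample, fewer cells of a type and less RNA per cell cannot be told apart. Of 12 neutrophil markers, 5 had a mean under 100 early and 8 late, and the sum was 3640 to 8118 early and 4748 to 8703 late. The 12 fibroblast and endothelial markers summed to 1382 to 11040 early, 672.9 to 7887 late and 800.8 to 13450 in untreated cells, so that the arrays differed widely within each group. Summed markers reached at most 596 for T and NK cells, 783.9 for B cells, 583.9 for dendritic cells and 352.6 for mast cells, basophils and eosinophils on any early or late array. On untreated arrays they reached 511, 1228, 424 and 224.3 in the same order, so that the B cell sum was highest there. The part of such cells in the results was not tested. Array medians lay between 29.72 and 31.65 units. The 75th percentile was 156.1 to 169.1 on the early arrays, 190.9 to 193.8 on the late ones and 199.0 to 207.0 on the untreated ones, and the median log2 difference of late minus early over all genes was -0.025. One array of cells given LPS both times, replicate C, stood apart with a 75th percentile of 119.9, and without it 1667 genes were higher and 836 lower in the late state, against 1658 and 831 with it.

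Promoter windows of 6 genes are shown as examples, and only windows that hold a motif match are shown. Il6 and Cxcl1 were high early and low late, and Cxcr4 was low early and high late. Isg20, Oas1a and Xaf1 were raised over untreated cells in both states. Rnd1, Shisa3, Ccl4 and Tnfsf9 fell more than Cxcl1, and Rgs2 and Sesn1 rose more than Cxcr4, but their windows are not shown. The matches listed below therefore do not show how often genes with such changes hold these letters. Each window runs from 250 bases before to 50 bases after the gene's start in RefSeq on GRCm38.p6 and is written 5′ to 3′ on the gene's strand. The window of Il6 lies at chr5:30012864-30013163, plus strand, that of Cxcl1 at chr5:90890995-90891294, plus strand and that of Cxcr4 at chr1:128592250-128592549, minus strand. Those of Isg20, Oas1a and Xaf1 lie at chr7:78913174-78913473, plus strand, at chr5:120907476-120907775, minus strand and at chr11:72301379-72301678, plus strand. In the first 3 windows, capitals mark matches on either strand to 6 motifs. Among them are the kappaB letters GGGNNTTTC, the AP-1 letters TGANTCA and the letters TTGCNNCAA. The others are the interferon-stimulated response element (ISRE) letters AAANNGAAA, the cyclic AMP element TGACGTCA and the E-box CACGTG. The letters TTGCNNCAA are spaced wider than the usual C/EBP site and do not stand for it. In the last 3 windows capitals mark ISRE matches only.
Il6: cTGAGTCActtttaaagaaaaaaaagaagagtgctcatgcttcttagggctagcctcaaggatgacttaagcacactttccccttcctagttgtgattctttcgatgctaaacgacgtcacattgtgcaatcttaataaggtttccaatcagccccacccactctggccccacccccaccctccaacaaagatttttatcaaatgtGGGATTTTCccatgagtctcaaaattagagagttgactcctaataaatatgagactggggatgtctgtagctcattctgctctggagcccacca
Cxcl1: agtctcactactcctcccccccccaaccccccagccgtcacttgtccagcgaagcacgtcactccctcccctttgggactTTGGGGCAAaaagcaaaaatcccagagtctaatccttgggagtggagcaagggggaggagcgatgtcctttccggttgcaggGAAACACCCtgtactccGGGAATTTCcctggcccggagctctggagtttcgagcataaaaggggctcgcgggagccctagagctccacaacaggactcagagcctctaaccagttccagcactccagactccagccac
Cxcr4: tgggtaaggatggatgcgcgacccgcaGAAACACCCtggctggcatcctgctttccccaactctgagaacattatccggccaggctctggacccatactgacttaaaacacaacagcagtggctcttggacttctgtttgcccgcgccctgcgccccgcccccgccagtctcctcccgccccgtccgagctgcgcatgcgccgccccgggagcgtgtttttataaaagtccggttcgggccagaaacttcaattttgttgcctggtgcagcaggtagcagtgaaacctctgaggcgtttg
Isg20: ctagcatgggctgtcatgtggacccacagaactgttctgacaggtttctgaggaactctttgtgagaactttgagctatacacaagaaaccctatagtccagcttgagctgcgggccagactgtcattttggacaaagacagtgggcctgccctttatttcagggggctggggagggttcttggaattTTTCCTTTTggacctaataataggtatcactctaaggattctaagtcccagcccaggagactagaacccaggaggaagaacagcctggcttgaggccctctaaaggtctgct
Oas1a: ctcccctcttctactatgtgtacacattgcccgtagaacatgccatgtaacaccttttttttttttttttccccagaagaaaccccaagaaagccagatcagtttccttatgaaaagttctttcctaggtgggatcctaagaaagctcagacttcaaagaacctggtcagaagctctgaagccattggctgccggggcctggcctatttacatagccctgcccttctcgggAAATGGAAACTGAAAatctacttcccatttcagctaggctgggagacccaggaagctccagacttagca
Xaf1: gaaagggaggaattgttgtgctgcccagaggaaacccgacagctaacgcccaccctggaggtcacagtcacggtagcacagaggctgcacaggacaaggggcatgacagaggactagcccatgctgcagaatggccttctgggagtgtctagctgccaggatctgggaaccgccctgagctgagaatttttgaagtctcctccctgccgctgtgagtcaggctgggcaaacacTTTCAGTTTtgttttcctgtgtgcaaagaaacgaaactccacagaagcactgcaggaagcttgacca
Il6 has a kappaB match that starts 44 bases before the gene's start and an AP-1 match near the far end of the window. C/EBP sites of the usual spacing were not searched for in any window. Cxcl1 has kappaB matches 71 and 88 bases before the start and a match to TTGCNNCAA 170 bases before it. Cxcr4 has a kappaB match at 223 bases. The ISRE match starts 62 bases before the start in Isg20 and 17 bases before it in Xaf1, and Oas1a has overlapping matches at 19 and 13 bases. Isg20, Oas1a and Xaf1 are the 3 interferon-induced genes with a match among the 4 that stayed raised and had a window.

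Of 18193 genes tested with limma, 1658 were higher in the late state, 9.11%, and 831 were lower, 4.57%, at a Benjamini-Hochberg adjusted p under 0.05 and at least 2-fold. The arrays of the states did not overlap for 2431 of these 2489 genes, and all 3 replicate pairs moved the same way for 2485. Before adjustment, at p under 0.05, limma had 4447 genes higher and 2916 lower. These shares and counts are the background for the members of gene lists counted below. Against untreated cells, 761 genes were higher early, 4.18%, and 1683 were lower, 9.25%, while 100 were higher late, 0.55%, and 97 lower, 0.533%. The late and early changes from baseline share the untreated arrays, and the difference between states shares an arm with each, so the classes that follow describe how calls fell and are not independent evidence of one another.

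Genes called higher early than in untreated cells and lower late than early are termed transient, and there were 605. Their median log2 change was 1.82 early minus untreated, -1.93 late minus early and -0.07 late minus untreated, and 538 of them were within 1 log2 unit of untreated cells late. Another 1327 genes were lower early and higher in the late state, here called recovered, with medians of -1.51, 1.49 and 0.01 in the same order. Genes raised in both states with no call between them, here called persistent, numbered 35, and 39 were lower in both. A gene was read by its brightest probe set on average. For 12 genes called and described here the second brightest was not called between the states: Axl, Cfp, Cx3cr1, Emp1, Fads1, Irak3, Plat, Rasgrp1, Sdhd, Slc2a9, Tnfsf13b and Zfp36l2. In 37 genes, here late-gained, the late level was called above both the early and the untreated one, and the early level was not called below untreated. In 21, here late-repressed, the late level was called below both and the gene had not been raised early. The remaining called genes, 294 higher and 205 lower in the late state, met none of these rules. The small classes need calls in several comparisons at once, and over the other settings run they held 12 to 45 late-gained, 8 to 42 late-repressed, 15 to 55 persistent and 8 to 61 persistently lower genes. Without any 1 of the untreated arrays, late B or late C, these 4 numbered 12 to 21, 8 to 12, 15 to 23 and 8 to 24. Late-gained genes numbered 21 without early C, and late-repressed genes 11 without late A and 34 without replicate C of the cells given LPS both times.

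**Figure D1:**
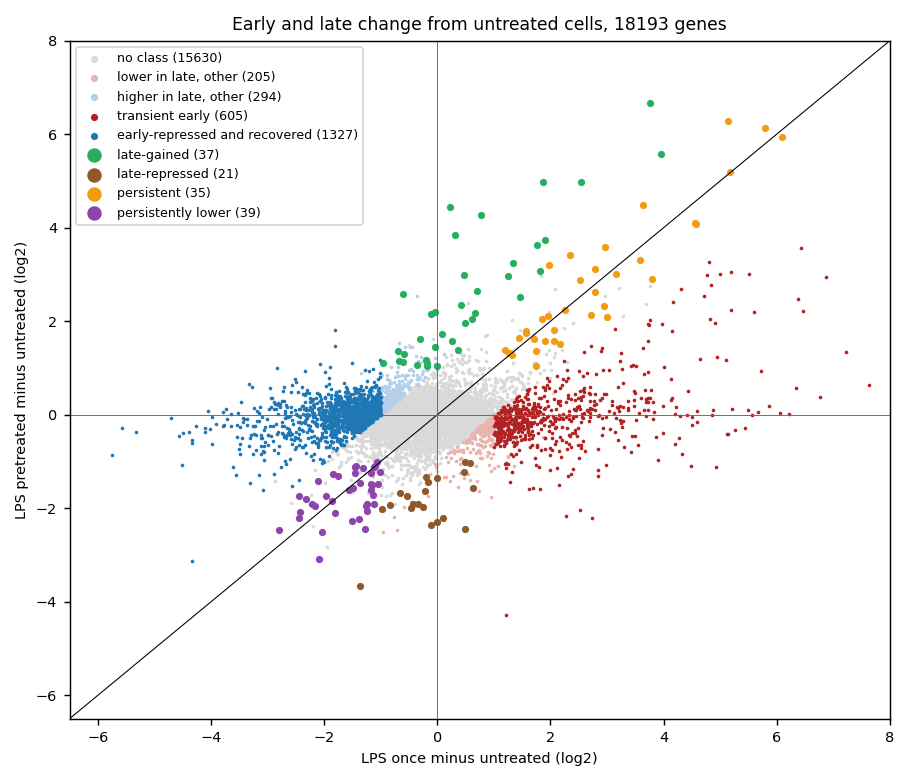
Each point is 1 of 18193 genes, with the log2 change of LPS once minus untreated on the horizontal axis and of LPS pretreated minus untreated on the vertical axis, coloured by class with the number of genes in brackets. Transient and recovered genes lie along the horizontal line at 0, and persistent genes lie near the diagonal of equal changes.

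The sequence windows of these classes differed in the letters they held. Across 14368 genes with a promoter window, ISRE letters stood in 8.58% and kappaB letters in 4.27%. Persistent genes held ISRE letters in 11 of 28 windows, 39.3%, late-gained genes in 5 of 25, 20%, transient genes in 57 of 495, 11.5%, and recovered genes in 6.45%. KappaB letters stood in 6.26% of transient, 4.36% of recovered and 1 of 28, 3.57%, of persistent windows. AP-1 letters were in 7.68%, 3.63% and 14.3% of the same classes, against 6.29% of all windows. The letters TTGCNNCAA, spaced wider than the usual C/EBP site, were in 3 of 28 persistent windows, 10.7%, and 1.77% of all. E-box letters stood in 12.0% of recovered windows and 9.04% of all, and the cyclic AMP element in 2.45% and 2.69%. These shares were not tested and are descriptions, a match is not a binding site, and kappaB and ISRE letters can overlap.

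Inflammatory cytokines were mostly transient. Of 20 measured, 16 were lower and 0 were higher in the late state, with a median log2 change of -2.26 against -0.025 over all genes. Before adjustment, at p under 0.05, limma had 19 lower and 0 higher. Of the 20, 15 were raised early and 0 late. Il6, a cytokine that drives the acute phase response, had intensities of 4394, 5878 and 6919 early (replicates A, B and C, as in all that follow) and 13.2, 76.6 and 15.3 late. The late levels were near the 11.5, 11.3 and 14.2 of untreated cells in A and C and above them in B, and the states did not overlap. The fall was 129-fold, or -7.01 ± 0.48 on the log2 scale (the error is the SE, n = 3 per state, limma adjusted p = 5.39e-05). Log2 values here are of intensity plus 16, so that folds of dim genes are understated. Tnf, the first-wave cytokine, read 5586, 7702 and 8019 early and 123, 265 and 178 late, with 337, 283 and 394 in untreated cells. All late arrays were below all untreated ones without a call (limma adjusted p = 0.176), and the change between states was -5.16 ± 0.25 (limma adjusted p = 2.2e-05). Il12b, a subunit of interleukins 12 and 23, fell from 632, 1380.1 and 2093 to 12.1, 18.5 and 11.1, near the untreated 10.2, 12.5 and 12.1. Il1a changed by -5.78 on the log2 scale and Tnfsf9, a T cell costimulator of the Tnf family, by -6.02.

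Il1b behaved less evenly. It read 13662, 15002 and 14765 early and 437, 4820.4 and 2938 late, against 467, 564 and 205 untreated. Late replicate A was within the untreated range, while B and C were above every untreated array, and the states did not overlap. The log2 change was -2.96 ± 0.68 (limma adjusted p = 0.0113), and it missed the threshold when only the 6 compared arrays were fitted (adjusted p = 0.0589). Early intensities of Il1b were close to the highest value on any early array, 16218, which limits the fall that could be seen.

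Il10, the main anti-inflammatory cytokine of macrophages, followed the inflammatory ones. Its intensities were 2206, 2545 and 2132 early and 45.2, 19.8 and 33.7 late, a log2 change of -5.59 ± 0.17 (limma adjusted p = 4.19e-06), with 53.4, 38.3 and 40.4 in untreated cells. The interleukin 1 receptor antagonist Il1rn took another course. It read 201, 339.9 and 111 untreated, 7033, 7842 and 4201 early and 1165, 3054 and 868 late, so that it fell by 2.06 on the log2 scale between states and was still 2.78 ± 0.24 above untreated cells late (limma adjusted p = 0.00208). Tsc22d3, the glucocorticoid-induced leucine zipper, ran opposite to both. Early levels of 38.3, 67.1 and 81.5 rose to 1677, 983 and 1406 late, beside 1361, 1295 and 1102 in untreated cells, and the change was 4.14 ± 0.40 (limma adjusted p = 0.00021). Of the 13 measured genes of the anti-inflammatory list, 5 fell, 38.5%, and 2 rose, 15.4%, beside 4.57% and 9.11% of all genes. Those that fell were Il10, Il1rn and the receptor chain genes Il4ra, Tnfrsf1b and Il1rap. Those that rose were Tsc22d3 and the receptor gene Il6ra. The list mixes mediators with cytokine receptors, so its shares do not describe anti-inflammatory mediators alone.

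**Figure D2:**
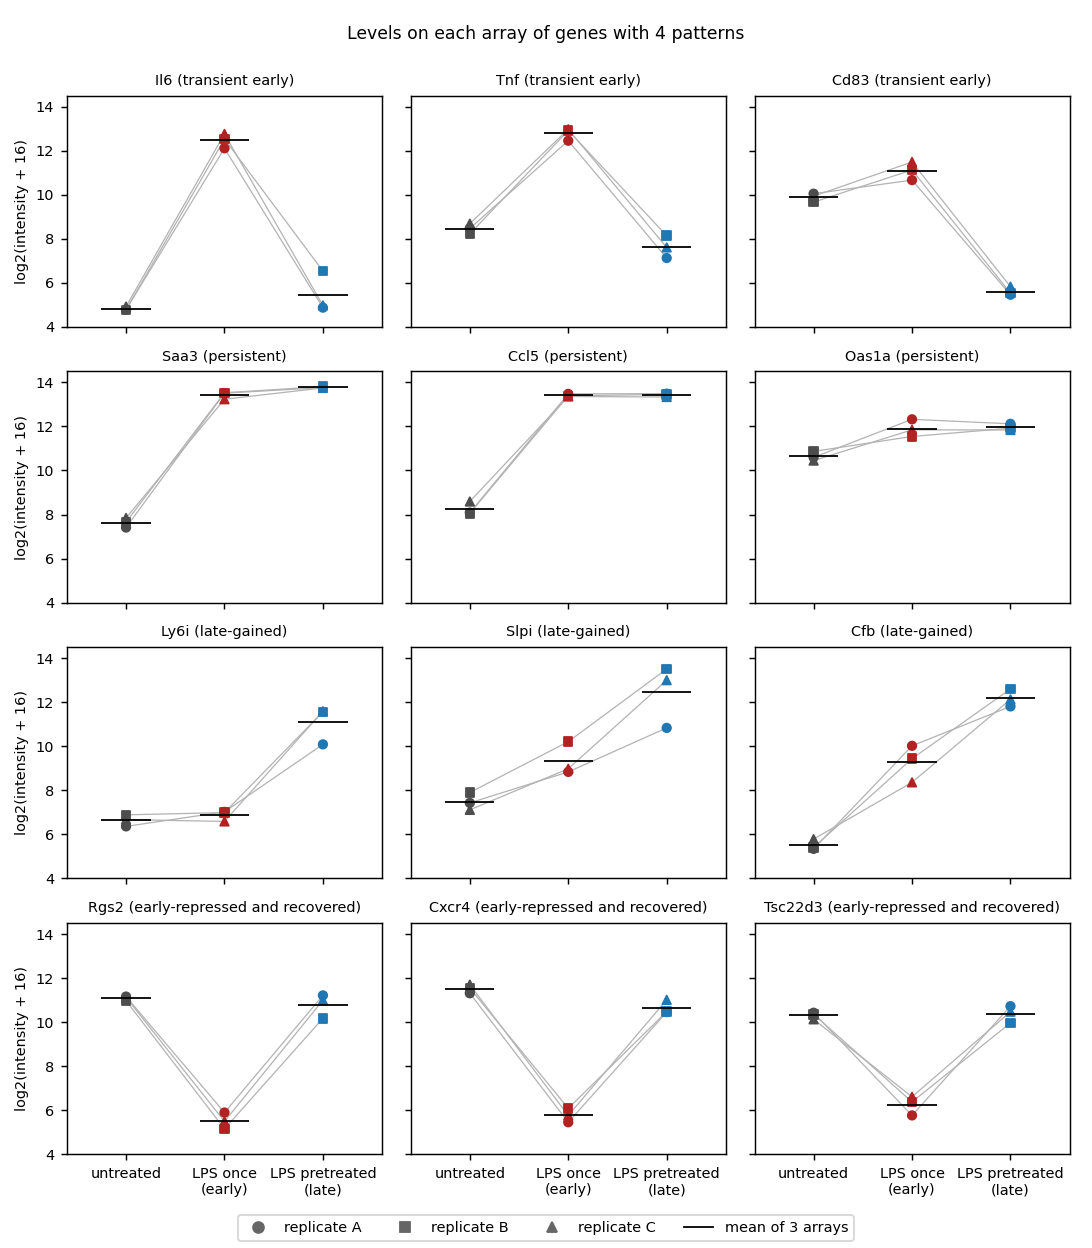
Log2(intensity + 16) of 12 genes on each array of untreated, LPS once and LPS pretreated cells, with symbols for the replicates, grey lines joining arrays of the same letter and black bars at group means. The rows show transient, persistent, late-gained and recovered genes, and late Il6 is near its untreated level while late Cd83 is below its own.

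Most CC chemokines fell from the early to the late state. Of 13 measured, 9 were lower late and 0 were higher, and limma had 10 lower and 0 higher before adjustment at p under 0.05. Ccl4, a macrophage inflammatory protein, read 12296, 11242 and 12728 early and 147, 191 and 160.0 late. The late values were below the untreated 385, 308 and 462, with a change of -6.06 ± 0.17 between states (limma adjusted p = 3.2e-06) and -1.13 ± 0.17 from untreated cells (limma adjusted p = 0.0206). Ccl3, its neighbour in function, changed by -5.58, and the monocyte attractants Ccl2 and Ccl7 changed by -2.99 and -2.55. Ccl5, which attracts T cells and monocytes, was persistent. It read 11407, 10751 and 10508 early and 11494, 11218 and 10339 late, against 256, 249.5 and 369.5 untreated, and the states overlapped, with a difference of 0.02 ± 0.15 (limma adjusted p = 0.955). Its levels in both states were high on the array scale, whose largest value on the 6 arrays was 16569, which limits the differences that could be seen.

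Neutrophil-attracting chemokines varied among the late cultures. Cxcl1 read 4431, 7935 and 9749 early and 25.2, 362 and 93.8 late, so that every late array was below every early one but replicate B was highest among the late ones. Cxcl2 read 7181, 9310.4 and 10569.8 early and 48, 1333 and 391 late, with the same order of replicates. Their log2 changes were -5.87 ± 0.67 and -4.77 ± 0.83 (limma adjusted p = 0.000407 and 0.00312). Cxcl3 kept 2138 units in late replicate B against 16.3 in A and 202.4 in C. Its change of -3.92 ± 1.00 was called with all arrays and lost without early A, early C, late A or late C, where the adjusted p reached 0.0718. Of 6 measured genes of this list 3 fell and 0 rose, with the same counts in limma at an unadjusted p under 0.05. Cxcl10, which attracts T cells through Cxcr3 and is induced by interferon, read 10536, 5896 and 8094 early and 283, 813 and 285 late. It fell by 4.24 and was still 2.22 above untreated cells on the log2 scale, a difference that limma did not call (adjusted p = 0.0614).

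NF-kappaB genes fell together, and 1, Nfkbie, was called below baseline late. Of 10 subunits and inhibitors measured, 9 were lower late and 0 higher, with a median log2 change of -2.76. At an unadjusted p under 0.05 limma had 10 lower and 0 higher. Rel, a transactivating subunit, read 658, 834 and 1231 early and 57.6, 76.6 and 84.7 late, near the untreated 69.7, 82 and 88.9. Its change was -3.34 ± 0.18 (limma adjusted p = 2.81e-05). Nfkbie, which encodes the inhibitor IkappaB epsilon, read 737, 621 and 533 untreated, 2575, 3346 and 3378 early and 45.2, 230.1 and 181 late. Here the late arrays were below all untreated ones, with a log2 difference of -2.16 ± 0.39 (limma adjusted p = 0.0394). Nfkbiz, an inducible nuclear cofactor of the same family, fell by 3.17 between states and differed from untreated cells by -1.18, without a call there (adjusted p = 0.0506).

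Immediate-early factors fell in 14 of 28 cases and rose in 1, Klf2, which limits endothelial and myeloid inflammation. Klf2 rose by 1.25 ± 0.30, and the call was lost without early A, late A or late C (adjusted p up to 0.0641). Maff, a small Maf factor, read 599, 1118 and 1606 early and 34.4, 42 and 31.4 late, a change of -4.33 ± 0.34 (limma adjusted p = 8.91e-05). Ets2 changed by -4.03 and Junb, an AP-1 subunit, by -2.58. Gfi1, a repressor of myeloid lineage choice, was low in untreated cells at 11.7, 13.2 and 13.8. It read 435, 1024 and 1218 early and 12, 12.8 and 13.7 late, with no overlap between states. Mir155hg, the host transcript of miR-155, read 687, 1248 and 1183 early and 10.7, 21.4 and 12.1 late, a log2 change of -5.07 ± 0.34 (limma adjusted p = 5.18e-05). The probe set reads the host transcript and not the mature miRNA.

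9 transient genes were called below untreated cells late. They were Ccl4, Cd83, Dusp1, Nfkbie, Noct, Sfpq, Slc30a4, Tlr2 and Zfp36, and naming them followed inspection of the values. Cd83, a maturation marker of antigen-presenting cells, had the largest deficit of the 9. It read 1040.1, 794 and 961 untreated, 1604, 2211 and 2847 early and 27.9, 30.1 and 40.6 late, and its late level differed from the untreated one by -4.28 ± 0.31 (limma adjusted p = 0.000709). Dusp1, the phosphatase that turns off p38 and Jnk, read 2698, 1813 and 1606 untreated, 7107, 6900.1 and 5574 early and 562, 809.9 and 641 late. Zfp36, which encodes tristetraprolin, a protein that speeds the decay of cytokine mRNAs, read 3468, 2959.6 and 2989 untreated, 6604, 8354 and 8023 early and 1347, 892 and 1234 late. For both genes all late arrays were lower than all untreated arrays, with differences of -1.56 ± 0.18 and -1.44 ± 0.19. Tlr2, the receptor of bacterial lipopeptides, rose by 1.21 early and differed from untreated cells by -1.04 ± 0.18 late. Noct, a deadenylase-like protein of circadian control, differed by -2.04 ± 0.36.

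Feedback inhibitors of LPS signalling mostly fell as well, and 11 of them had been raised early. Of 23 measured, 16 were lower late and 2 higher, with a median of -2.15. Socs3, which inhibits the interleukin 6 receptor, read 9445, 10446 and 9394 early and 107, 389.7 and 144 late, against 188, 210.1 and 139 untreated, a change of -5.61 ± 0.30 (limma adjusted p = 2.7e-05). Tnfaip3, a ubiquitin-editing enzyme that ends NF-kappaB signalling, read 8061, 10315 and 10279 early and 139, 584 and 342 late, with late replicate A below every untreated array (797, 522 and 565). It changed by -4.89 on the log2 scale, and the phosphatases Dusp2 and Dusp16 changed by -5.54 and -4.83. Irak3, the kinase-like protein that restrains Toll-like receptor signalling, kept more of its early level. It read 706, 916 and 679 untreated, 3588, 3927 and 3504 early and 1157, 2238 and 1927 late. Its difference of -1.09 ± 0.23 between states was called (limma adjusted p = 0.00688) and was under 2-fold without late replicate A. The late level was 1.15 above untreated cells without a call (adjusted p = 0.0505). The 2 that rose were Rgs2, a brake on Gq-coupled receptors, and Inpp5d, the lipid phosphatase SHIP-1. Inpp5d read 3619, 3400.3 and 3912 untreated, 220.1, 374 and 578 early and 3479, 2377 and 3527 late. Its late levels were near baseline, and its early levels were far below it.

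Surface molecules for T cell contact fell in 10 of 15 cases and rose in 0, with a median log2 change of -2.57. At an unadjusted p under 0.05 limma had 11 lower and 1 higher. Cd40, the receptor through which T cells license antigen-presenting cells, read 8219, 7997 and 8799 early and 159, 172 and 115 late, beside 164, 129 and 97.8 in untreated cells. The change was -5.68 ± 0.30 (limma adjusted p = 2.64e-05). Cd69 changed by -4.79 and Slamf1 by -3.23. Cd274, the inhibitory ligand of the receptor PD-1, read 282, 229 and 278 untreated, 4422, 3155 and 3484 early and 750.0, 1758 and 887 late. It fell by 1.78 but stayed 1.95 ± 0.33 above untreated cells (limma adjusted p = 0.0297), with replicate B the highest late array.

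Several lipid mediator, arginine and coagulation genes were transient. Of 16 genes of prostaglandin and arginine metabolism 7 fell, 43.8%, and 1, Arg1, rose, 6.25%, beside 4.57% and 9.11% of all genes. Ptgs2, the inducible cyclooxygenase, read 5499.7, 7905 and 7655 early and 80.4, 435 and 37.5 late. Untreated arrays read 168, 481 and 29.4, so that late and untreated cells overlapped, and the change between states was -5.71 ± 0.71 (limma adjusted p = 0.000644). Ptges, the prostaglandin E synthase, fell by 2.50 and was still 3.01 ± 0.40 above untreated cells late (limma adjusted p = 0.012). Nos2, the inducible nitric oxide synthase, was dim throughout, with 48.2, 86.1 and 45.2 early and 24.8, 29.6 and 20.2 late, and was not called. Of the 20 complement and coagulation genes, 4 fell, F3, Plaur, Plat and Serpinb2, and 3 rose, Cfb and Cfp among them, with a list median of -0.04. F3, tissue factor, read 135, 173 and 106 early and 10.7, 10.5 and 10.5 late, and Plaur, the urokinase receptor, fell by 4.06. In Serpinb2, an inhibitor of urokinase, late replicate B was above early replicate A (1958, 4851 and 3177 early and 102, 2165 and 239 late), and its call was lost without early A, early C, late A or late C (adjusted p up to 0.0888) or with no replicate block (adjusted p = 0.0613). Of 23 matrix and remodelling genes 6 fell and 3 rose, and the collagenase Mmp13 changed by -3.91 and Edn1, the vasoconstrictor endothelin-1, by -4.75.

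Largest among all decreases after Il6 were Rnd1 and Shisa3, which antagonises Wnt and Fgf signalling in other tissues. Rnd1 read 3366, 4479 and 3742 early and 21.4, 42 and 29.9 late, and Shisa3 read 1679, 2109 and 2468 early and 11.3, 13 and 11.5 late. Each gene fell by a similar amount in all 3 pairs, with changes of -6.38 ± 0.15 and -6.22 ± 0.15 (limma adjusted p = 1.34e-06 and 1.34e-06). Hcar2, the niacin and ketone body receptor, changed by -5.57 and Ch25h, which makes the antiviral sterol hydroxycholesterol, by -5.55. The largest increases were led by Rgs2, Sesn1 and Cxcr4, described with the recovered genes.

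**Figure D3:**
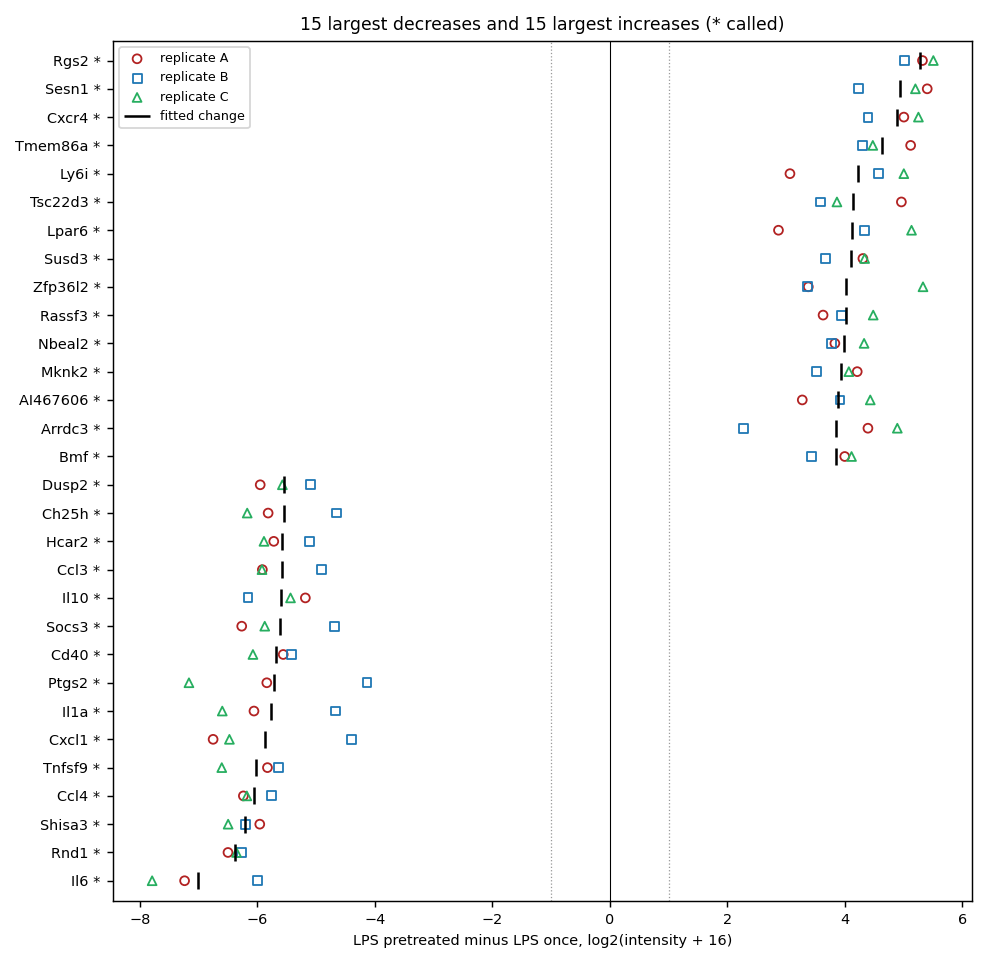
Difference of LPS pretreated minus LPS once in log2(intensity + 16) for the 15 called genes with the largest decreases and the 15 with the largest increases whose states did not overlap, with 1 symbol per replicate pair and a bar at the fitted change. Replicate B shows the smallest fall in several cytokine and chemokine genes, among them Cxcl1, Il1a and Ptgs2, and every symbol lies beyond the dotted lines at a 2-fold difference.

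Of 23 glycolytic and hypoxia-induced genes 10 were lower and 2 higher late, with a median of -0.53. Before adjustment, at p under 0.05, limma had 12 lower and 9 higher. The median late minus early log2 difference within a replicate was -0.88 in A, -0.54 in B and 0.09 in C, where 12 of 23 were above early. Pfkfb3, which makes the activator of glycolytic phosphofructokinase, read 6795, 6655 and 4712 early and 452, 678 and 574 late, with 289.6, 312 and 378 untreated. The glucose transporter Slc2a1 changed by -2.31 and the vasodilator Adm by -3.72, whereas Pfkfb4, a relative of Pfkfb3, rose by 2.37 ± 0.19 and Hk3, a myeloid hexokinase, by 1.38 ± 0.21. Of 28 citric acid cycle and respiratory genes, 3 were higher, which is near the 9.11% of all genes, and 0 fell. Before adjustment, at p under 0.05, limma had 24 higher and 0 lower, against 4447 and 2916 of 18193 genes. Sdhb, a subunit of succinate dehydrogenase, read 2745, 2649.6 and 2664 untreated, 1573, 1344 and 1435 early and 3706, 3535 and 3937 late. All late arrays were above all untreated ones, and the change between states was 1.35 ± 0.07 (limma adjusted p = 2.58e-05). Sdhd rose by 1.15 ± 0.14 and Idh1, the cytosolic isocitrate dehydrogenase, by 1.39 ± 0.11, and the list's median was 0.51. The difference between the glycolytic and the respiratory genes was not tested.

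**Figure D4:**
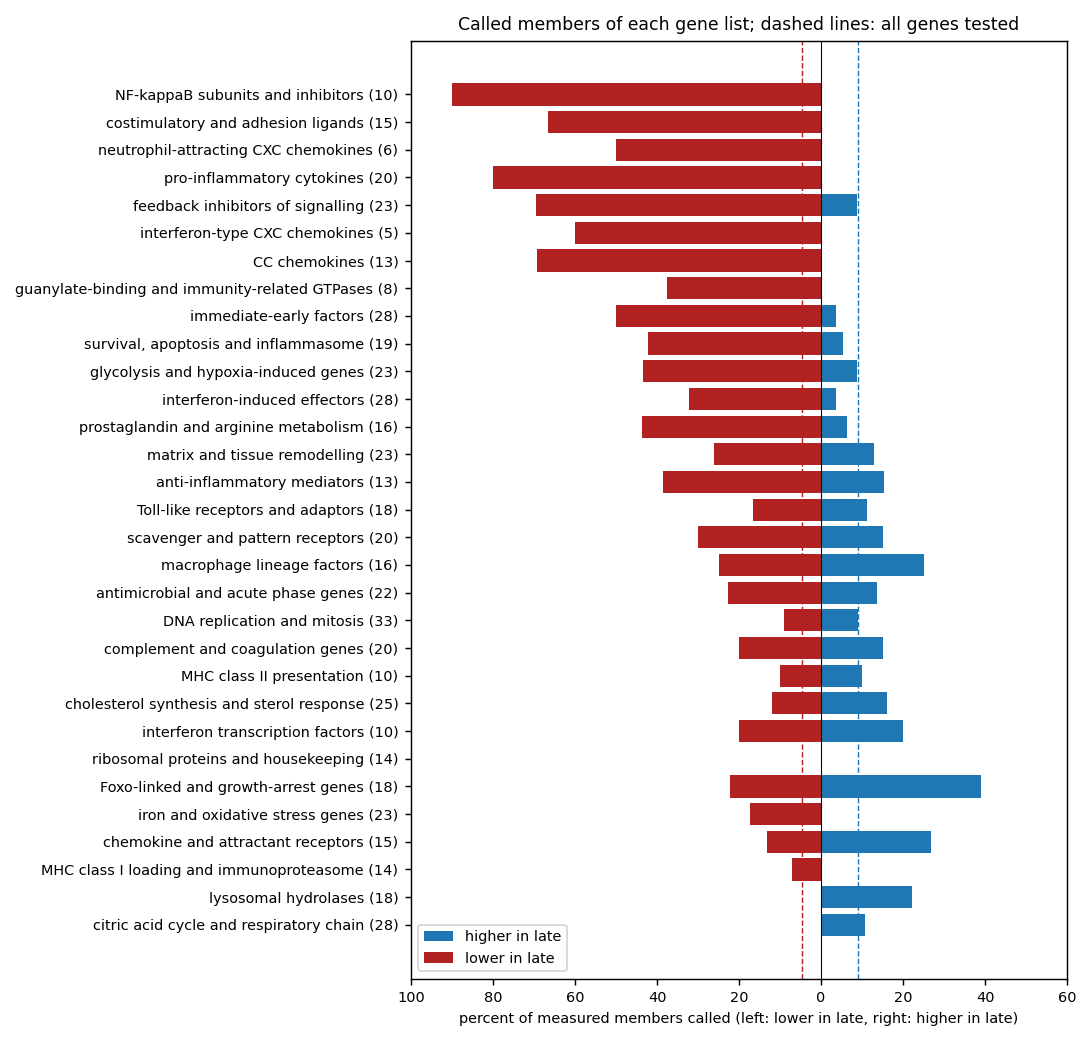
Percent of measured members called lower (left) and higher (right) in the LPS pretreated than in the LPS once state for 31 gene lists, with the number of measured members in brackets and the lists ordered by their median change. Dashed lines mark the 4.57% lower and 9.11% higher among all genes tested, and the cytokine, NF-kappaB and costimulatory lists show 80.0%, 90.0% and 66.7% lower.

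Interferon-induced effector genes split into those that fell and those without a call between the states. Of 28 measured, 25 were raised early, and 12 were raised late against untreated cells. Between states 9 were lower and 1, Bst2, was higher, with a median of -0.51. Mx2, a dynamin-like restriction factor, read 2132, 542 and 1019 early and 220.3, 136 and 86.5 late, and Ifih1, the RNA sensor MDA-5, read 6064, 3985 and 4818 early and 1433, 874 and 753 late. Neither overlapped between states, and the changes were -2.80 ± 0.47 and -2.30 ± 0.26 (limma adjusted p = 0.00265 and 0.00039). Rsad2, the antiviral enzyme viperin, read 12162, 5368 and 9046 early, 4276, 2905 and 1605 late and 357, 542 and 347 untreated. It changed by -1.62 ± 0.41 between states and was still 2.69 ± 0.41 above untreated cells (limma adjusted p = 0.0171 and 0.02), and the call between states was lost without early A, early C or late C (adjusted p up to 0.0795). Ifit1, which binds viral RNA ends, moved alike, by -1.79 between states and 2.98 from untreated cells, and lost its call between states without early A, early C or any 1 late array (adjusted p up to 0.0948) and with no replicate block (adjusted p = 0.0517).

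Other interferon-induced genes were not called between the states. Oas1a, an oligoadenylate synthetase that activates RNase L, read 1534, 1853 and 1382 untreated, 5114, 2973 and 3664 early and 4436, 3862 and 3647 late, with overlapping states and a difference of 0.05 ± 0.18 (limma adjusted p = 0.86). Usp18, which removes Isg15 from proteins and damps interferon receptor signalling, read 181, 204 and 142 untreated, 5976, 1389 and 2174 early and 2038, 1415 and 939 late. Its states also overlapped, and the difference of -0.91 ± 0.42 was not called (adjusted p = 0.15) but was called lower late without early B. Xaf1 and Isg20, an exonuclease that degrades RNA, were persistent as well, with late changes from untreated of 1.81 and 2.62. In all, 8 of the 28 were persistent. Of 8 guanylate-binding and immunity-related GTPases 3 fell, Gbp2, Gbp3 and Gbp7, and all 3 remained above untreated cells, by 3.27, 1.59 and 2.02. Ifnb1, the interferon gene itself, was dim, with 36.2, 24.5 and 75.3 early and 22.3, 20.5 and 20.2 late, and was not called (adjusted p = 0.0543).

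The replicates differed in their interferon response. The median rise of the 28 effectors early was 3.10 log2 units in A, 1.32 in B and 2.21 in C, and the median change from early to late was -0.88, -0.16 and -0.76. Late was below early for 25, 16 and 24 of them. Replicate B had the smallest early rise and the smallest fall, but both use the same early array, so they are tied by construction. The median late change from untreated cells was 2.315 in A, 1.315 in B and 1.698 in C.

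**Figure D5:**
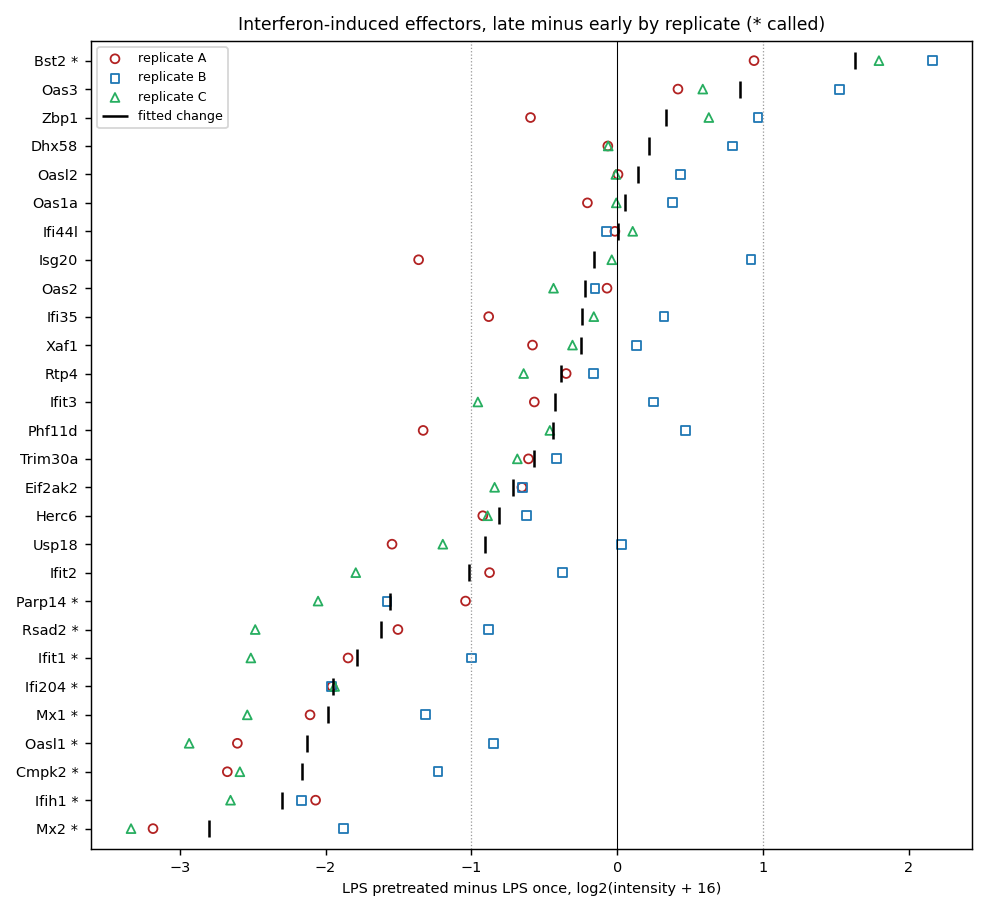
Difference of LPS pretreated minus LPS once in log2(intensity + 16) for the 28 interferon-induced effectors, ordered by the fitted change, with 1 symbol per replicate pair and a bar at the fitted change. Called genes carry a star, and replicate B lies to the right of C in most rows.

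Interferon transcription factors went both ways, 2 of 10 higher late and 2 lower. Irf7, which amplifies type I interferon, read 291, 463 and 301 untreated, 2809.5, 882 and 950.5 early and 5135, 4611 and 4676 late. Every late array exceeded every early one, a change of 1.84 ± 0.36 (limma adjusted p = 0.00574). Irf8, a lineage factor of macrophages, read 2097, 2173 and 2809 untreated, 1017, 486 and 530.2 early and 2298, 2007 and 2244 late. Its late levels were near the untreated levels, and its early levels were lower. Irf1 fell by 1.49 from the early to the late state. Bst2, the membrane protein tetherin that holds budding virus particles, read 1344, 1586 and 1207 untreated, 2591, 1058 and 1129 early and 4977, 4785 and 3957 late. It rose by 1.63 ± 0.27 between states. Its early change from untreated cells was 0.09 on average and was not called, with A above and B and C below their untreated arrays.

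The 35 persistent genes included secreted proteins and receptors of the acute phase besides the interferon-induced ones. Their median change from untreated cells was 2.34 early and 2.24 late. Saa3, serum amyloid A-3, an acute phase protein made by macrophages, read 154, 186 and 214 untreated, 11678, 11824 and 9632 early and 13874, 14367 and 13756 late. The late arrays were all above the early ones, with a difference of 0.35 ± 0.12 that was not called (limma adjusted p = 0.0607), and both states were near the top of the array scale. The transcript U90926 read 39.9, 56.4 and 39.2 untreated, 3193, 6403 and 3446 early and 1504, 7989.8 and 4213 late, with overlapping states. Lcn2, which withholds iron from bacteria, read 28.6, 203 and 85.1 untreated, 4170.1, 4731 and 2206 early and 4505, 10888 and 9319 late. Its late level was 1.13 ± 0.41 above the early one without a call (adjusted p = 0.0702), and the call was gained without early replicate A. Fpr2, a receptor of formyl peptides and serum amyloid A, read 259, 227 and 208 untreated, 5851, 5624 and 5922 early and 2828, 5903 and 4487 late, and Cp, the copper-carrying ferroxidase ceruloplasmin, read 75.6, 53.4 and 63.2 untreated, 2487, 1854 and 1434 early and 1389, 1430.5 and 1178 late. Both differed between states by less than 2-fold, -0.46 ± 0.22 and -0.49 ± 0.19 (limma adjusted p = 0.164 and 0.0849). Sod2, the mitochondrial superoxide dismutase, was 1.51 ± 0.16 above untreated cells late and differed from the early level by -0.66 ± 0.16. A difference that missed the call does not show equal levels.

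16 transient genes stayed called above untreated cells late. Besides Il1rn, Cd274, Ptges, Rsad2, Ifit1 and the Gbp genes, they included Mx1, an antiviral GTPase, and Rasgrp1, an exchange factor for Ras. The states overlapped in Mx1, and its call between them was lost without early A, early C or any 1 late array (adjusted p up to 0.131) or with no replicate block (adjusted p = 0.11), and its late excess over untreated cells had a limma adjusted p of 0.0489. Rasgrp1 read 14.8, 13.7 and 20.1 untreated, 392, 568 and 516 early and 103, 151 and 80.1 late. Its late arrays lay between the untreated and the early ones with no overlap on either side, with log2 differences of 1.95 ± 0.18 and -2.02 ± 0.18 (limma adjusted p = 0.00269 and 0.000145). Acod1, the enzyme that makes itaconate, read 123, 176 and 97.3 untreated, 12333, 12091 and 12836 early and 319, 6509 and 2317 late. Late replicate B was far above late A, with C between them. Its change of -2.85 ± 0.77 (limma adjusted p = 0.023) lost its call without early A, early C or late C, and its late excess over untreated cells was not called (adjusted p = 0.0665).

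Late-gained genes included defence proteins at the cell surface and secreted ones. Of the 37, 9 had also been raised early, and the median late change from untreated was 2.17. Ly6i, a small glycosyl-phosphatidylinositol-anchored surface protein, read 66.3, 102 and 85.9 untreated, 114, 111 and 80.2 early and 1073, 3024 and 3071 late. Early and untreated arrays overlapped, and every late array was far above both, a change between states of 4.22 ± 0.32 (limma adjusted p = 8.75e-05). Slpi, a protease inhibitor that limits NF-kappaB activity in macrophages, read 157, 223 and 123 untreated, 442, 1169 and 489 early and 1811, 11666 and 8197 late, rising at both steps. Cfb, the complement protease of the alternative pathway, read 24.6, 26.4 and 39.1 untreated, 1024, 679 and 313 early and 3577, 6214 and 4469 late. Their changes from early to late were 3.11 ± 0.49 and 2.91 ± 0.39 (limma adjusted p = 0.00187 and 0.000859). Marco, a scavenger receptor for unopsonised bacteria, read 271, 53.2 and 129.8 untreated, 1131, 603 and 774 early and 6371, 5176 and 2694 late, also without overlap, and rose by 2.44 ± 0.44 (limma adjusted p = 0.00371).

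Enzymes and receptors were also late-gained. Arg1, arginase of alternatively activated macrophages, read 48.7, 16.6 and 12.4 early and 257, 1376 and 227 late, with 20.1, 13.2 and 13.8 untreated. Replicate B was highest late and every late array exceeded every early one, a change of 3.53 ± 0.71 (limma adjusted p = 0.00634). Pla2g7, which inactivates platelet-activating factor, read 3091, 2955 and 2940.2 untreated, 2102, 2224 and 1673 early and 7335, 7192 and 7639 late. The 3 late arrays were alike, with a change of 1.89 ± 0.09 (limma adjusted p = 2.2e-05). Bst1, a cyclic ADP-ribose enzyme, rose by 3.52 ± 0.59, Prkcb, a protein kinase C, by 2.07 ± 0.13, Cd1d1, which presents lipids to NKT cells, by 2.28 ± 0.39, and the gelatinase Mmp9 by 1.95 ± 0.32. Tnfsf13b, the B cell survival factor BAFF, read 32.6, 29.6 and 31.8 early and 106, 243 and 171 late. Hp, haptoglobin, was raised early and higher late, 1175, 2691 and 385 early and 1573, 7933 and 2919.7 late, with overlapping states. Its call between states was lost without untreated C, early B, early C, late B or late C (adjusted p up to 0.146) and with no replicate block (adjusted p = 0.196). Of 22 antimicrobial and acute phase genes 3 were higher late and 5 lower, and of 20 scavenger and pattern receptors 3 and 6.

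Recovered genes made up most of the increases. Rgs2 read 2274, 1992 and 2214 untreated, 43.5, 19.6 and 28.9 early and 2360.4, 1138 and 2027 late. Early arrays were dim and late arrays near the untreated ones, a 38.9-fold difference between states and a log2 change of 5.28 ± 0.24 (limma adjusted p = 1.8e-05). Sesn1, a sestrin induced under stress that restrains mTORC1, read 3687, 2563 and 3249 untreated, 77, 51.4 and 61.2 early and 3917, 1250.4 and 2824 late. Cxcr4, the receptor of Cxcl12, read 2525, 2975 and 3319 untreated, 27.8, 51.9 and 38.2 early and 1389, 1409.9 and 2049 late, with each late array below each untreated one. The changes between states were 4.94 ± 0.24 and 4.88 ± 0.38 (limma adjusted p = 2.2e-05 and 8.91e-05). Tmem86a, a lysoplasmalogenase, rose by 4.63 ± 0.24, Zfp36l2, a relative of Zfp36, by 4.02 ± 0.38 and the kinase Mknk2, which phosphorylates the cap-binding factor eIF-4E, by 3.93 ± 0.18. The late levels of these 3 differed from untreated cells by -0.08, -0.24 and -0.06.

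Some receptors and macrophage identity genes shared that course. Of 15 chemokine and attractant receptors 4 rose, 26.7%, and 2 fell, 13.3%, beside 9.11% and 4.57% of all genes. Gpr65, a proton-sensing receptor, read 1533, 1394 and 1464 untreated, 116, 33.7 and 80.2 early and 1408, 640.0 and 1607 late, a change of 3.74 ± 0.24 (limma adjusted p = 4.63e-05). Cx3cr1, the fractalkine receptor, read 2157, 1125 and 1763 untreated, 358, 80.2 and 183 early and 715, 446 and 449 late, so that its late arrays stayed below all untreated ones. Its rise of 1.48 ± 0.37 was lost without early B, late B or late C (adjusted p up to 0.0637) and with no replicate block (adjusted p = 0.082). Mertk, which takes up apoptotic cells, read 1912, 1320.2 and 1775 untreated, 221, 85.5 and 105 early and 2607, 751 and 1438 late and rose by 3.32 ± 0.37. Among 16 lineage factors 4 rose and 4 fell. Cebpa read 2998, 2666 and 3745 untreated, 333, 251 and 446 early and 1758, 934 and 1236 late. Its late levels lay between the early and the untreated levels. The change between states was 1.87 ± 0.39 (limma adjusted p = 0.00708), and the late difference from untreated cells was -1.28. Mef2c rose by 2.55 ± 0.34, and Tfec, of the Mitf family, fell by 3.03. Tlr4 itself read 729, 960.0 and 895 untreated, 372, 548 and 401 early and 729, 719 and 753 late and was not called (limma adjusted p = 0.0517). Cd14 changed by -1.10 ± 0.17 (limma adjusted p = 0.00173), and without late replicate A the fall was under 2-fold.

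Growth-arrest genes linked to Foxo factors rose in 7 of 18 cases, 38.9%, and fell in 4, 22.2%, beside 9.11% and 4.57% of all genes. The list did not rise as a whole, with a median of 0.08. Within a replicate the median was 0.52 in A, -0.31 in B and 0.21 in C. Foxo3, a factor held in the cytoplasm by Akt, read 827, 877 and 834 untreated, 104, 197 and 99.2 early and 1069, 640.0 and 987 late, a change of 2.64 ± 0.28 (limma adjusted p = 0.000288). Txnip, which restrains glucose uptake, rose by 1.53 ± 0.21. Cdkn1a, a cyclin-dependent kinase inhibitor of the Cip family, and Ddit4, an mTORC1 inhibitor, ran the other way and changed by -2.25 and -3.13.

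Lysosomal genes also rose in part, while sterol genes went both ways. Of 18 lysosomal genes 4 were higher late, 22.2%, and 0 lower, beside 9.11% and 4.57% of all genes. At an unadjusted p under 0.05 limma had 14 higher and 0 lower, against 4447 and 2916 of 18193 genes. The median of the lysosomal list was 0.39. Gaa, the acid glucosidase, read 629.7, 700.1 and 794 untreated, 281, 423 and 379.7 early and 777, 890.0 and 843 late, a change of 1.19 ± 0.14 (limma adjusted p = 0.000522). Npc1, which exports cholesterol from lysosomes, rose by 1.08 ± 0.20, and without early A or late A the rise was under 2-fold. Of 25 sterol genes 4 rose and 3 fell. Fads1, a fatty acid desaturase, read 1462, 1776 and 1748 untreated, 172, 254 and 226 early and 1911, 1514 and 1999.6 late and rose by 2.97 ± 0.17. Scd2, a stearoyl-CoA desaturase, and Dhcr7, the last enzyme of cholesterol synthesis, rose by 3.17 ± 0.29 and 2.19 ± 0.23. In Scd2 every late array exceeded every untreated one, 759, 1347 and 636 against 398, 548 and 291.

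Late levels called above baseline were found in 3 recovered genes, Sirpb1a, Foxred2 and Slc2a9, named after their values were seen. Sirpb1a, of the signal-regulatory protein family, read 730.0, 932 and 617 untreated, 214, 261 and 147 early and 2765, 2325 and 2897 late. All late arrays were above all untreated ones, and the change between states was 3.61 ± 0.19 (limma adjusted p = 2.64e-05). Probe sets of close families such as Sirpb, Ly6 and Gbp may also read related members. Foxred2, which acts in disposal of misfolded proteins, was 1.47 ± 0.27 above untreated cells late. Slc2a9, a urate transporter, was 1.17 ± 0.17 above them. Itgam, the complement receptor integrin chain, and Cfp, properdin, had late levels above every early and untreated array, 6007, 5682 and 5602 and 7685, 6299 and 7989.9, with changes from the early state of 1.46 ± 0.11 and 1.39 ± 0.12.

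Cell cycle genes changed in both directions between the states. Of 33 DNA replication and mitosis genes 3 were higher and 3 lower late, 9.09% each way, beside 9.11% higher and 4.57% lower over all genes. Against untreated cells 9 of the 33 were lowered early and 6 late, where 9.25% and 0.533% of all genes were lowered. Cdt1, which licenses replication origins, read 969, 1024 and 1328 untreated, 177, 137 and 189 early and 593, 884 and 1017 late, a change of 2.18 ± 0.19 (limma adjusted p = 0.000122). The proliferation marker Mki67 went the other way, with 1015, 3483 and 2633 early and 196, 276 and 104 late against 396, 443 and 258 untreated, a change of -3.44 ± 0.38 (limma adjusted p = 0.000369). Ccnd2, a cyclin of early cell cycle, fell by 2.33. Inflammasome and survival genes fell in 8 of 19 cases and rose in 1, Ripk3, the necroptosis kinase, by 1.37 ± 0.13. Nlrp3, the inflammasome sensor, read 2320.0, 4415 and 4616 early and 377, 276 and 370.0 late, and Casp4, which binds cytosolic LPS, 4104, 3716 and 3201 early and 292, 502 and 280.2 late. Neither overlapped between states, and both fell, with changes of -3.36 and -3.34. The 14 ribosomal and housekeeping genes had 0 calls in either direction, with a median of 0.04, and limma had 3 higher and 2 lower before adjustment at p under 0.05.

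Late repression affected 21 genes that LPS had not raised early. Ets1, a transcription factor, read 249, 167 and 377 untreated, 276, 417 and 407 early and 25.1, 45 and 31 late, a change between states of -2.94 ± 0.41 (limma adjusted p = 0.00106). Emp1, an epithelial membrane protein, read 1878, 1890.3 and 2289.9 untreated, 1941, 1880.1 and 1733 early and 325, 435 and 385 late, with untreated and early arrays overlapping and every late array far below. Tgm2, tissue transglutaminase, changed by -2.29, Myc by -2.20 and Axl, an apoptotic cell receptor like Mertk, by -1.71. Axl and Mertk moved in opposite directions from early to late. Cd207, langerin, fell at both steps, 1697, 486 and 918 untreated, 624, 163 and 386 early and 104, 35.8 and 46.5 late. Its change between states was -2.30 ± 0.17 (limma adjusted p = 8.22e-05).

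In 39 genes the level was below untreated cells in both states without a call between them. Pparg, the lipid-sensing nuclear receptor, read 536, 420.4 and 633 untreated, 126, 78.3 and 132 early and 85.3, 23.3 and 46.9 late. It differed from untreated cells by -3.10 ± 0.19 late (limma adjusted p = 0.000389), and its difference between states of -0.995 (SE 0.19) was just short of 2-fold (limma adjusted p = 0.00501), and it passed 2-fold without early A or late A. St6gal1, a sialyltransferase, read 1003, 988 and 878 untreated, 110.4, 136 and 124 early and 291, 69.5 and 194 late, and Havcr2, the inhibitory receptor of T cells, read 569.8, 328 and 406 untreated, 136, 76.3 and 124 early and 103, 84 and 75.6 late. In both genes every array of either LPS state was below every untreated array, and the states overlapped. Kitl, the ligand of Kit, and Pde3b, a cyclic nucleotide phosphodiesterase, differed from untreated cells by -2.21 and -2.07 late.

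The late cultures did not all lie equally near the untreated ones. In the 605 transient genes the median change from early to late was -2.02 in A, -1.78 in B and -2.02 in C, and the late level was at least 1 log2 unit above the untreated array of the same letter for 32, 66 and 42 genes. Among all genes those counts were 217, 305 and 199. Genes with much higher late values in B than in A included Cxcl3, Acod1, Il1b, Slc7a11, the cystine transporter, at 47.8, 1066 and 133, and Mmp8, the neutrophil collagenase, at 251, 3000.2 and 713. Mmp8 is also a neutrophil marker, and its rise of 2.02 ± 0.50 was lost without early B, early C, late B or late C and with no replicate block (adjusted p = 0.197). Of the other neutrophil markers Ngp and S100a9 fell, with changes of -1.91 and -1.35, with overlapping states, 165, 1546 and 689.6 early and 54, 534 and 299.9 late for S100a9. With no replicate block neither was called (adjusted p = 0.157 and 0.483). Without late replicate B 1802 genes were higher and 817 lower between the states. Differences between cultures of one state were not tested, and having 3 replicates per state limits the precision of every value.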

How the data were processed

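RNA from 12 cultures was measured on Affymetrix arrays, 3 per group. The deposited values are intensities of 45101 probe sets on a linear scale, and the program and scaling the authors used are not given in the sources at hand here. After 64 controls were left out, 34945 probe sets had 1 gene symbol (34741 updated by Entrez ID, 204 as on the platform), 932 had several and 9160 had none. Values were taken as log2(intensity + 16), and each of 18193 genes was read by its probe set with the highest mean, 9010 of them having more than 1.

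limma 3.58.1 in R 4.3.3 fitted the 4 groups and the replicate letter over all 12 arrays, with Benjamini-Hochberg adjustment over all genes, and was tested on simulated data. The letter was kept as a block because deviations from the group means correlated within each letter (r = 0.274 to 0.482 in 3 pairs of compared arrays). Between letters r was -0.31 to -0.0788 in 6 pairs. Centring on the means of 3 arrays ties these values to those within letters, so they are not separate evidence of pairing. Whether a letter marks one animal is not stated, so p-values cannot be read as measuring a spread between animals. They measure the spread left among these cultures after group and letter are fitted, pooled over the 4 groups.

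The members and the 38 gene lists (670 genes, 609 measured) were chosen with earlier results of these data known. Genes were named by rule: the 15 largest increases and decreases without overlap, up to 4 called members per list and direction, the leading genes of each class and a fixed set of LPS genes. Genes of a class named outside the rule were chosen after their values were seen, as was the set of Isg20, Oas1a and Xaf1 promoters. Windows of Il1a and AI467606, which also hold a motif match, were taken but are not shown. Promoter windows are RefSeq's on GRCm38.p6, and 14368 genes matched one by Entrez ID, with the first listed window taken per gene. Alternatives covered the block, the arrays fitted, scaling, pseudocount, dim genes, probe sets, the limma prior, the fold minimum and leaving out each array.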

Additional observations from a re-analysis of the deposited data

How the results depend on the processing

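No detection calls were used here, so differences of dim genes are limited by the added 16 units and a background level that is not known. The 1658 higher and 831 lower genes became 1614 and 772 with no replicate block, 1563 and 765 with the 6 compared arrays alone and the block, 1421 and 910 after quantile normalization, 1724 and 806 after shifting arrays to a common median, 1916 and 925 with a pseudocount of 1, and 1162 and 699 with one of 64. With each probe set tested by itself 2467 were higher and 1581 lower, where more features were tested, and with no minimum fold the counts were 3776 and 2065. Leaving out 1 array gave 1386 to 1802 higher and 732 to 866 lower genes. Calls that were higher made up 66.6% of all calls, 61% after quantile normalization and 68.1% after the median shift.

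The small classes moved most, and the cause was not tested. Late-gained genes, 37 in all, numbered 15 with no replicate block and 19 with a pseudocount of 64, and 12 to 42 when 1 array was left out. Late-repressed genes, 21 in all, numbered 8 with no replicate block, 34 after quantile normalization, 42 with a pseudocount of 1, 8 with one of 64, 37 among genes with a mean intensity of at least 100, 35 with a trended robust prior and 8 to 34 when 1 array was left out. Persistent genes numbered 55 after quantile normalization and 15 to 41 without 1 array, against 35. Persistently lower genes numbered 61 and 24 with pseudocounts of 1 and 64 and 8 to 51 without 1 array, against 39. Recovered genes numbered 881 with a pseudocount of 64, against 1327.

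Of 132 called genes described in the text, 119 kept their call without any 1 array and 13 lost it in at least 1 case. With no replicate block 8 lost their call, Cx3cr1, Hp, Ifit1, Mmp8, Mx1, Ngp, S100a9 and Serpinb2, and with the 6 arrays alone and the block 5 did, Acod1, Cxcl3, Hp, Il1b and Mmp8. With a pseudocount of 64 Hp lost its call (adjusted p = 0.0606). Genes uncalled here gained a call as follows: Pparg after quantile normalization (-1.13) and with a pseudocount of 1 (-1.25), Nos2 with a pseudocount of 1 (-1.19), and Lcn2 among genes with a mean of at least 100 and with the trended robust prior (adjusted p = 0.0224 and 0.0495). Some uncalled changes near 0 turned sign. On the log2 scale Xaf1 was 0.069 on its second probe set. Without 1 array, Isg20 ran from -0.78 to 0.38 (above 0 without early A or late A), U90926 from -0.37 to 0.19 (above 0 without the same arrays), Oas1a from -0.16 to 0.19 (below 0 without early B) and Ccl5 from -0.018 to 0.077 (below 0 without early C, late A or late B).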
